A study of Homo sapiens with 9 samples.

Results

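The extracellular matrix and mesenchymal genes described here are 42 named genes that encode collagens, laminins, other matrix proteins, collagen-processing enzymes, mesenchymal cell proteins and transcription factors of the epithelial to mesenchymal transition (EMT). They were listed by symbol, with earlier results of these data known. All 42 were found by Ensembl identifier among the 60719 genes of the table. They were measured by RNA sequencing in MDA-MB-231, a human triple-negative breast cancer line of mesenchymal character. All recipient cells were wild type (WT) MDA-MB-231 cells kept for 72 h in 5% exo-free medium, in 3 groups of 3 libraries. The TIS sEV group received small extracellular vesicles (sEVs), which are nanometre-sized membrane particles shed by cells, from donor MDA-MB-231 cells made senescent by therapy. Those donors had 100 ng/ml of nocodazole, a microtubule-destabilising drug, for 72 h and were then released into exo-free medium for another 72 h before vesicles were collected by differential centrifugation. The Cont sEV group received vesicles from donors given DMSO on the same schedule, and the No sEV group received none. Donor senescence and other effects of the nocodazole treatment on the donors cannot be told apart in this design. Nothing in the labels tells if the replicates came from separate cultures, so p-values measure the spread between these libraries, which may be technical.

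The extracellular matrix is built from fibril-forming and network-forming collagens, laminins that polymerise into basement membranes, and glycoproteins such as fibronectin and tenascin that link these to cell-surface receptors. Collagen chains are hydroxylated, folded and crosslinked by dedicated enzymes. In EMT, transcription factors of the ZEB, SNAI and TWIST families repress epithelial junction genes while vimentin, fibronectin and mesenchymal cadherins are made, and carcinoma cells in this state can deposit matrix themselves.

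Each level is a gene's TPM, a transcript abundance scaled by gene length; these sum to 1000000 in each library, which leaves the read depth unknown. A gene was tested if 3 or more libraries held 1 TPM or more of it, which kept 13879 genes, with limma's moderated test on log2(TPM + 1) and Benjamini-Hochberg adjustment over all of them at 0.05. The libraries were alike: across genes, library pairs of the same group had Pearson's r of 0.991 to 0.994 and pairs from different groups 0.992 to 0.994. All 6 markers of mesenchymal triple-negative cells (VIM, CD44, AXL, CAV1, PLAU and S100A4) were expressed. Their sum was 3638 to 3717 TPM in TIS sEV, 3518 to 3592 in Cont sEV and 3528 to 3592 in No sEV libraries. VIM and CD44 are also among the matrix and mesenchymal genes described here. These 2 averaged 2249 and 468.6 TPM over all libraries and made up most of the sum. The sum is therefore not independent of the values given for them below. Of 8 fibroblast and smooth muscle markers, 2 reached 1 TPM in 3 libraries, THY1 was listed at 0 throughout, and the list summed to 4.34 to 6.74 TPM in TIS sEV, 4.21 to 5.07 TPM in Cont sEV and 3.98 to 4.21 TPM in No sEV libraries; the part of such transcripts in the results was not tested. Of 8 luminal or HER2 breast markers, KRT8, ERBB2, EPCAM and GATA3 reached it and ESR1, PGR, FOXA1 and CDH1 did not; the list summed to 388 to 407 TPM in TIS sEV, 384 to 394 TPM in Cont sEV and 369.9 to 394 TPM in No sEV libraries. Of the others, 2 of 3 endothelial and 1 of 4 leukocyte markers reached it. In bulk RNA, fewer cells with a transcript and less of it per cell cannot be told apart.

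Of the 42 genes, 35 reached 1 TPM in 3 libraries: 34 did so in all 9 libraries and VCAN, which encodes the proteoglycan versican, in 5. The mean over the 9 libraries was at least 100 TPM for 13 genes, between 10 and 100 TPM for 13 and under 10 TPM for 9 of those tested. The 7 genes that did not reach 1 TPM in 3 libraries were COL1A2, COL6A3, NID1, SPARC, BGN, CDH2 and TWIST1. NID1, which encodes the basement membrane linker nidogen, and TWIST1, an EMT transcription factor, were listed at 0 in all 9 libraries, and BGN, which encodes the proteoglycan biglycan, was listed at 0 in 7 libraries and reached 0.0666 TPM at most. CDH2, which encodes N-cadherin, lay between 0.537 and 0.996 TPM. SPARC, which encodes the collagen-binding glycoprotein osteonectin, had 0.464, 0.597 and 0.498 TPM in TIS sEV, 1.49, 0.357 and 0.229 TPM in Cont sEV and 1.07, 0.380 and 0.629 TPM in No sEV libraries, so that 2 libraries passed 1 TPM. In 6 of the 7 roles at least 1 gene stayed below the filter beside others that passed it; the collagen folding and crosslinking enzymes were the exception, with 5 of 5 passing.

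**Figure D1:**
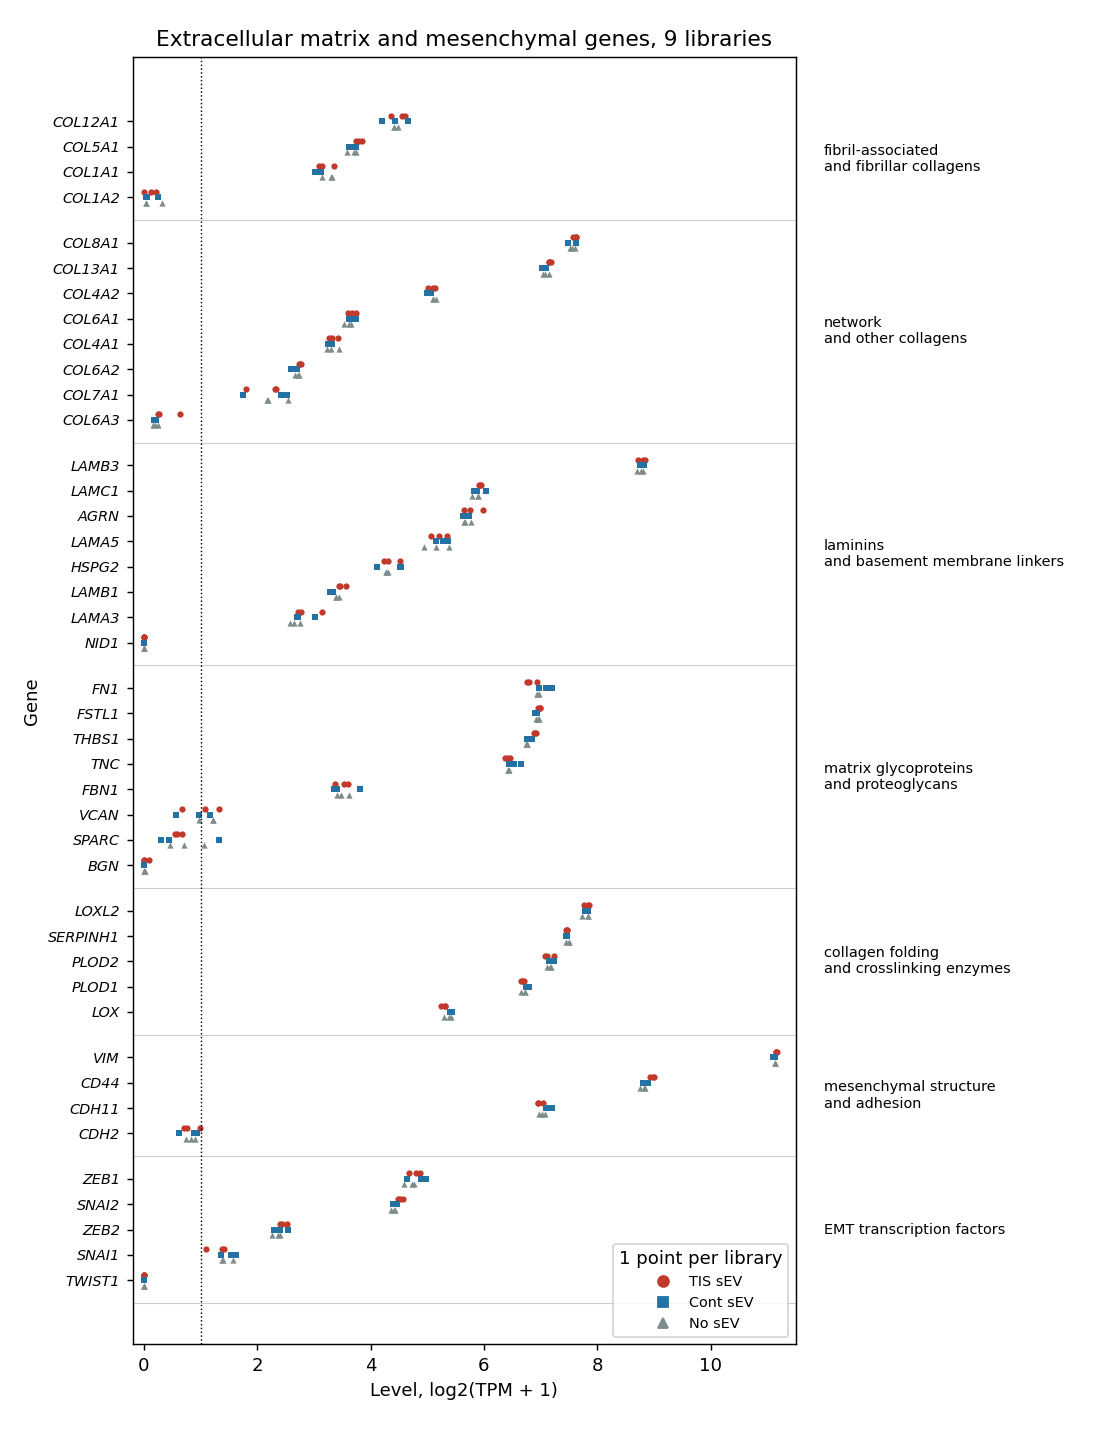
Level of each of the 42 genes on the log2(TPM + 1) scale, 1 point per library, grouped by role, with TIS sEV as circles, Cont sEV as squares and No sEV as triangles. The dotted line marks 1 TPM; the 7 untested genes lie at or left of it in at least 7 libraries, and the spread between libraries of a gene is small beside the spread between genes.

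Together the 42 genes took 5175 ± 44.9 TPM in TIS sEV, 5082 ± 87.2 TPM in Cont sEV and 5034 ± 69.7 TPM in No sEV libraries (SD, n = 3 each). VIM, which encodes the intermediate filament protein vimentin, made up 44.1% of that sum as a mean over all libraries. CD44, the hyaluronan receptor gene, made up 9.19% and LAMB3, a laminin chain gene, 8.61%. No other member passed 5% of the sum; the next was LOXL2 at 4.37%.

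Among the 12 collagen genes, the transcripts were mainly those of COL8A1, which encodes a short-chain network collagen, and COL13A1, which encodes a membrane-spanning collagen. These made up 75.8% of the collagen TPM between them. COL8A1 had 189.9, 197 and 197 TPM in TIS sEV, 178, 178 and 197 TPM in Cont sEV and 186, 183 and 195 TPM in No sEV libraries, and all 3 groups overlapped. COL13A1 averaged 136 TPM over all libraries. The fibrillar collagens were lower. COL12A1, a fibril-associated collagen gene, had 19.6, 22.6 and 23.4 TPM in TIS sEV, 20.6, 17.5 and 24.2 TPM in Cont sEV and 20.2, 20.3 and 21.3 TPM in No sEV libraries, again overlapping. COL5A1, for a chain that regulates fibril diameter, averaged 12.2 TPM, and COL1A1, for the main chain of type I collagen, 8.08 TPM. COL1A2, for the chain that normally joins COL1A1 in type I collagen, lay between 0 and 0.244 TPM. A similar gap stood in collagen VI, which is assembled from 3 different chains: COL6A1 averaged 11.6 TPM and COL6A2 5.50 TPM, while COL6A3 stayed between 0.115 and 0.549 TPM. COL6A3 had 0.549, 0.190 and 0.197 TPM in TIS sEV, 0.130, 0.147 and 0.158 TPM in Cont sEV and 0.183, 0.150 and 0.115 TPM in No sEV libraries; it lay below 1 TPM everywhere and was not tested. COL7A1, for the anchoring fibril collagen, averaged 3.75 TPM.

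COL4A1 and COL4A2 encode the chains of the main basement membrane collagen and are transcribed away from each other. COL4A1 had 9.71, 8.64 and 8.95 TPM in TIS sEV, 9.01, 8.61 and 8.52 TPM in Cont sEV and 8.86, 8.40 and 9.88 TPM in No sEV libraries. COL4A2 had 33.1, 31.3 and 34.3 TPM in TIS sEV, 31.8, 30.8 and 32.3 TPM in Cont sEV and 34.4, 33.2 and 33.5 TPM in No sEV libraries. The ratio of COL4A2 to COL4A1 TPM ranged from 3.39 to 3.95 with a median of 3.62 over the 9 libraries, so the pair kept an unequal but narrow proportion. Their RefSeq starts lie on opposite strands with 126 bases between them, shown here because both genes share this stretch as their upstream sequence, at chr13:110307158-110307283 on GRCh38.p14, plus strand (RefSeq). Capitals mark motif matches on either strand.
COL4A1-COL4A2: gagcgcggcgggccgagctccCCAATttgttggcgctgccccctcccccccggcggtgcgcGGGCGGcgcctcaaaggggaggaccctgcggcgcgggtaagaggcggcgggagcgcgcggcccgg
This stretch was 80.2% G and C and held 1 CCAAT box (CCAAT) and 1 GC box (GGGCGG). In the last 126 bases before the start of each of 27305 RefSeq promoters, 21.9% held a CCAAT box and 34.6% a GC box. These promoters were not limited to expressed genes, nor matched for G and C content. GENCODE 29 annotates longer transcripts that make both genes overlap at this place, COL4A1 at chr13:110148963-110307233 on the minus strand and COL4A2 at chr13:110305812-110513209 on the plus strand. The overlap of this pair is one of gene spans, since no exon of COL4A1 overlaps an exon of an opposite-strand gene. The sources used here do not tell whether the counting used strand. Reads from exons that overlap on opposite strands could therefore be assigned with error. COL4A2 (with COL4A2-AS1 and COL4A2-AS2), THBS1, TNC, LOX, VIM and CD44 are among the members with an opposite-strand gene that overlaps their exons.

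Laminins are trimers of 1 alpha, 1 beta and 1 gamma chain, and their genes also differed in level. LAMB3, for the beta chain of the epithelial laminin of hemidesmosomes, had 448, 422 and 457 TPM in TIS sEV, 443, 432 and 455 TPM in Cont sEV and 446, 413 and 435 TPM in No sEV libraries, with no separation of the groups. Its partner LAMA3, for the alpha chain, averaged 5.94 TPM, and the ratio of LAMB3 to LAMA3 TPM was 53.8 to 89.3. The chains of the laminin most widespread in basement membranes were closer together: LAMC1 averaged 58.9 TPM, LAMA5 36.3 TPM and LAMB1 9.57 TPM. The linkers AGRN and HSPG2, which encode the heparan sulphate proteoglycans agrin and perlecan, averaged 52.0 and 19.4 TPM. The 5 laminin members summed to 554.8 ± 14.4 TPM in TIS sEV, 555.4 ± 18.3 TPM in Cont sEV and 538.6 ± 23.9 TPM in No sEV libraries (SD, n = 3 each), and their ranges overlapped.

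**Figure D2:**
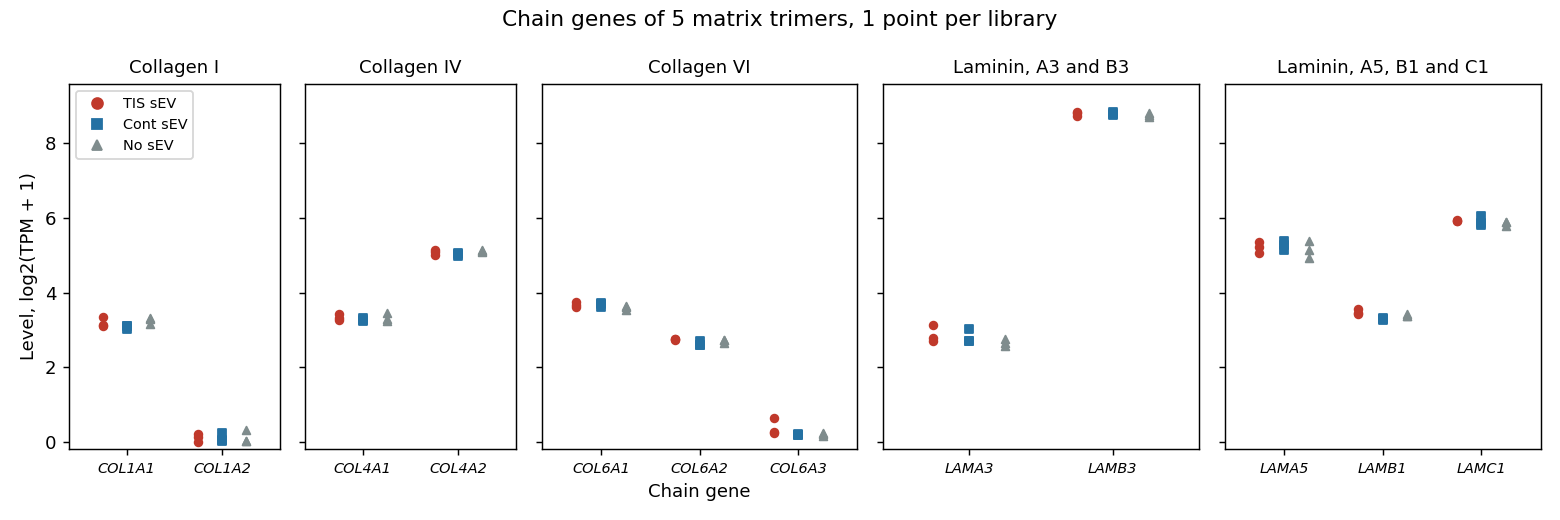
Levels, on the log2(TPM + 1) scale, of chain genes of 5 matrix trimers, 1 point per library (TIS sEV circles, Cont sEV squares, No sEV triangles). COL1A2, COL6A3 and LAMA3 stand well below their partner chains in every library, and the 3 groups lie close together within each gene.

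The matrix glycoproteins were led by FN1 (fibronectin), FSTL1 (a secreted glycoprotein of the SPARC family), THBS1 (thrombospondin, which binds cells and activates latent TGF-beta) and TNC (tenascin), at means of 124, 123, 112 and 87.6 TPM over all libraries. FBN1, for the microfibril protein fibrillin, averaged 10.4 TPM and VCAN 1.06 TPM. All 5 enzymes and chaperones of collagen were well expressed. LOXL2, a lysyl oxidase family gene, had 229, 215 and 229 TPM in TIS sEV, 219, 220.0 and 228 TPM in Cont sEV and 226, 210.4 and 228 TPM in No sEV libraries. SERPINH1, for the collagen chaperone HSP47, averaged 176 TPM and PLOD2, a lysyl hydroxylase gene, 142 TPM. Both means stood above that of every collagen gene except COL8A1.

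Among the EMT transcription factor genes, ZEB1 was highest, with 27.0, 28.4 and 24.7 TPM in TIS sEV, 28.5, 23.9 and 30.4 TPM in Cont sEV and 23.0, 25.6 and 26.2 TPM in No sEV libraries. Its 3 groups overlapped. SNAI2, which encodes the repressor Slug, averaged 21.0 TPM, ZEB2 4.30 TPM and SNAI1 1.68 TPM. CDH11, for the mesenchymal cadherin-11, averaged 132 TPM while CDH2 averaged 0.772 TPM, so 1 of the 2 mesenchymal cadherin genes listed was expressed above 1 TPM. CDH1, the epithelial cadherin gene that ZEB and SNAI factors repress, lay between 0.0887 and 0.577 TPM.

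The comparison of TIS sEV with Cont sEV asks how recipients of vesicles from nocodazole-treated donors differed from recipients of vesicles from DMSO-treated donors. None of the 35 tested members passed: limma called 0 of them, and 13 of all 13879 genes (0.0937%). The members nearest to the threshold differed by small amounts in both directions. CD44, THBS1, LAMB1, COL13A1 and VIM lay higher in TIS sEV, and FN1, CDH11, LOX, PLOD1 and TNC lay lower, each with an unadjusted p under 0.05. Those are 10 of 35 members (28.6%), against 10% of all tested genes; of all tested genes 7.07% were higher and 2.93% lower at that threshold, and of members 5 lay each way. Restricted to means of 5 TPM or more, 10 of 31 members (32.3%) and 11.3% of 10483 genes had such a p. Between 7 and 10 members did so when each library was left out in turn.

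FN1 had the smallest p of the members in this comparison. It had 109.7, 108 and 122 TPM in TIS sEV, against 135, 124 and 146 TPM in Cont sEV libraries. All 3 TIS sEV values lay below all 3 Cont sEV values, the nearest being 122 and 124 TPM. The log2 fold change was -0.25 (SE 0.060, 95% interval -0.39 to -0.12; limma adjusted p = 0.214). CDH11 had 123, 130.4 and 122 TPM in TIS sEV, against 142, 136 and 146 TPM in Cont sEV libraries, again without overlap. Its log2 fold change was -0.17 (SE 0.040, limma adjusted p = 0.216). LOX, for the lysyl oxidase that crosslinks collagen and elastin, had 38.7, 38.6 and 37.0 TPM in TIS sEV, against 42.4, 41.4 and 42.4 TPM in Cont sEV libraries. The LOX groups were separate, at a log2 fold change of -0.14 (SE 0.042, limma adjusted p = 0.298). PLOD1, for a lysyl hydroxylase of collagen, had 102, 100.1 and 104 TPM in TIS sEV, against 106, 109 and 109.6 TPM in Cont sEV libraries, also without overlap (log2 fold change -0.09, limma adjusted p = 0.393). TNC had 85.3, 82.2 and 87.4 TPM in TIS sEV, against 91.5, 85.9 and 99.4 TPM in Cont sEV libraries, where the groups overlapped (log2 fold change -0.12, limma adjusted p = 0.468).

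In the other direction, CD44 had 514, 489 and 508 TPM in TIS sEV, against 476, 449 and 446 TPM in Cont sEV libraries. Every TIS sEV library was above every Cont sEV library, and the log2 fold change was 0.14 (SE 0.035, 95% interval 0.06 to 0.22; limma adjusted p = 0.228). THBS1 had 117, 119 and 120.2 TPM in TIS sEV, against 111, 107 and 114 TPM in Cont sEV libraries. The THBS1 groups did not overlap either, at a log2 fold change of 0.10 (SE 0.030, limma adjusted p = 0.287). COL13A1 had 141, 144 and 141 TPM in TIS sEV, against 136, 134 and 129 TPM in Cont sEV libraries (log2 fold change 0.10, limma adjusted p = 0.372). LAMB1 had 9.95, 9.86 and 10.9 TPM in TIS sEV, against 8.72, 8.90 and 9.08 TPM in Cont sEV libraries; at 0.18 this was the largest positive log2 fold change of the tested members in this comparison (limma adjusted p = 0.359). VIM had 2291, 2267 and 2299 TPM in TIS sEV, against 2240, 2206 and 2218 TPM in Cont sEV libraries. Its groups were separate but the log2 fold change was 0.04 (SE 0.018, limma adjusted p = 0.491).

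Groups did not overlap for 12 of the 35 members, 8 higher and 4 lower in TIS sEV, which is 34.3% of them, against 15.4% of all tested genes (10.9% higher and 4.47% lower). Besides those named, COL6A2, FSTL1 and SNAI2 were higher without overlap. The median log2 fold change of the members was 0.04, against 0.02 over all tested genes, and 20 of 35 members (57.1%) lay above 0, against 59.6% of all genes. With Cont sEV replicate 2 left out, the members' median became -0.0015, so its sign rested on that library.

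Upstream sequences are shown for FN1, the member of smallest p in TIS sEV against Cont sEV, and for CD44 and THBS1, those of smallest p in TIS sEV against No sEV. RefSeq promoters were matched for 32 of the 42 members. Each is the 250 bases before the RefSeq start on GRCh38.p14, written in the direction of transcription: CD44 at chr11:35138921-35139170 on the plus strand, THBS1 at chr15:39580829-39581078 on the plus strand and FN1 at chr2:215436069-215436318 on the minus strand. Capitals mark matches, on either strand, to the GC box (GGGCGG), the CCAAT box (CCAAT), the TATA box (TATAAA), the cAMP response element (TGACGTCA), the AP-1 site (TGANTCA) and the E-box bound by ZEB and SNAI factors (CACCTG).
CD44: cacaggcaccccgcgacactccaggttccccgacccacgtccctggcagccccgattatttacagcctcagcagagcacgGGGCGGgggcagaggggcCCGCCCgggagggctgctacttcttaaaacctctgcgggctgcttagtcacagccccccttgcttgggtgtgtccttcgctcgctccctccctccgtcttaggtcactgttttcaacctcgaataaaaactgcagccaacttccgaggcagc
THBS1: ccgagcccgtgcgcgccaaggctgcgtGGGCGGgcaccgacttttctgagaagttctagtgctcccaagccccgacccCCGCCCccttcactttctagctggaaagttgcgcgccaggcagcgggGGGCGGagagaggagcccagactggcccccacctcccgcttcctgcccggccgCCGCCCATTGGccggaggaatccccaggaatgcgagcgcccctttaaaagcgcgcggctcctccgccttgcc
FN1: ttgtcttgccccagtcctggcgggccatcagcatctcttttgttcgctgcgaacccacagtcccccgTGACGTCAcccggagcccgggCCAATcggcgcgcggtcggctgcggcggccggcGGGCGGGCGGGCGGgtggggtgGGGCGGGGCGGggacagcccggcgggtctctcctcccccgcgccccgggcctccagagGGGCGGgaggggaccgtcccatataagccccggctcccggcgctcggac
CD44 held 2 GC boxes, THBS1 held 4 GC boxes and 1 CCAAT box, and FN1 held 6 GC boxes, some of them overlapping, with 1 CCAAT box and 1 cAMP response element. A GC box was found in 26 of 32 member promoters (81.2%) and in 42.3% of all 27305 promoters of that length. Those 27305 were not limited to expressed or protein-coding genes, nor matched to the members for G and C content. The shares are thus not those of like genes. A CCAAT box stood in 8 of 32 (25%) and in 33% of all, and the E-box in 4 of 32, those of LAMA3, LAMA5, LAMB3 and ZEB1, and in 17.5% of all. Of the 32 member promoters matched, only that of FN1 held the cAMP response element, which 1.77% of all promoters held. A TATA box stood in 3 of 32, against 11.1% of all, and an AP-1 site in 1 of 32, that of LAMA3, against 6.6% of all. These are matches to the letters given, with other spellings of each motif not searched, and they are not shown to be bound sites. GENCODE 29 starts CD44 at 35138870 and FN1 at 215436172, so longer annotated transcripts reach upstream of, or into, these windows.

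**Figure D3:**
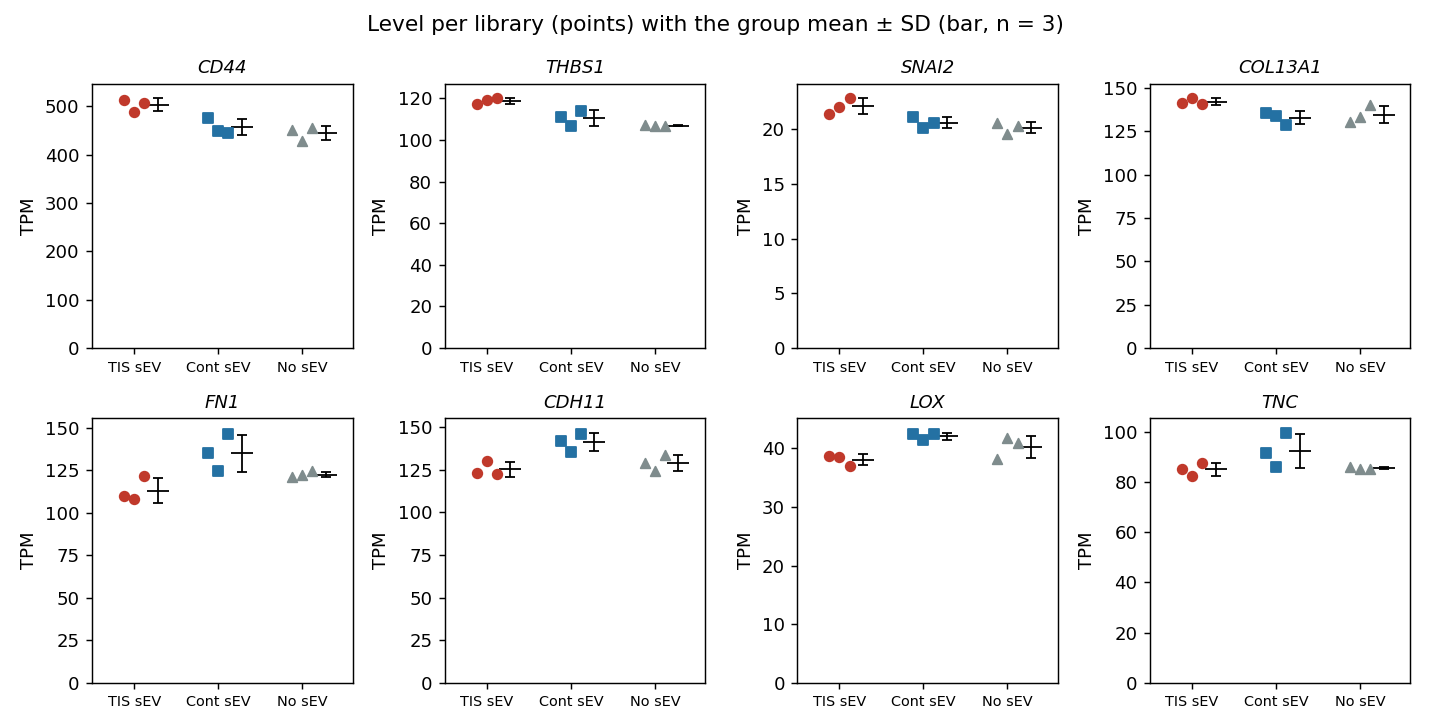
TPM of 8 members in each library (points) with the group mean and SD (bars, n = 3), in the order TIS sEV, Cont sEV and No sEV, on axes that start at 0. CD44 and THBS1 are highest in the TIS sEV libraries, and FN1, CDH11 and LOX are lower there than in the Cont sEV libraries, all by amounts that are small beside the level itself.

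The comparison of TIS sEV with No sEV asks how recipients of those vesicles differed from cells given none; it shares its TIS sEV libraries with the comparison above. CD44 and THBS1 had the smallest p-values here, followed by SNAI2 and COL13A1, and all 4 lay higher in TIS sEV. limma called 0 of 35 members and 1 of all tested genes (0.00721%). An unadjusted p under 0.05 was seen for 4 members (11.4%), against 7.97% of all tested genes, of which 6.33% were higher and 1.64% lower; with means of 5 TPM or more, it was 4 of 31 members (12.9%) and 8.71% of genes. Without No sEV replicate 2 the count was 2 members.

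CD44 had 514, 489 and 508 TPM in TIS sEV, against 451, 428 and 456 TPM in No sEV libraries, without overlap. The means were 504 ± 12.9 TPM in TIS sEV and 445 ± 14.8 TPM in No sEV libraries (SD, n = 3 each), and the log2 fold change was 0.18 (SE 0.035, 95% interval 0.10 to 0.26; limma adjusted p = 0.271). THBS1, with 117, 119 and 120.2 TPM in TIS sEV libraries, averaged 119 ± 1.45 TPM there and 107 ± 0.367 TPM in No sEV libraries (SD, n = 3 each). Its No sEV libraries held 107.3, 106.8 and 106.6 TPM, all below the TIS sEV libraries, and the log2 fold change was 0.15 (SE 0.030, limma adjusted p = 0.271). SNAI2 had 21.4, 22.1 and 22.8 TPM in TIS sEV, 21.1, 20.1 and 20.6 TPM in Cont sEV and 20.6, 19.6 and 20.3 TPM in No sEV libraries. The TIS sEV and No sEV groups of SNAI2 did not overlap (log2 fold change 0.13, SE 0.045, limma adjusted p = 0.558). COL13A1 had 141, 144 and 140.6 TPM in TIS sEV, against 130.4, 133 and 140.0 TPM in No sEV libraries, so that the groups were separate by less than 1 TPM. FN1 had 109.7, 108 and 122 TPM in TIS sEV, against 121, 122 and 124 TPM in No sEV libraries, and these overlapped (log2 fold change -0.12, limma adjusted p = 0.669). VIM had 2291, 2267 and 2299 TPM in TIS sEV, against 2240, 2238 and 2241 TPM in No sEV libraries, separate at a log2 fold change of 0.03. LOX had 38.7, 38.6 and 37.0 TPM in TIS sEV, against 38.2, 41.7 and 40.9 TPM in No sEV libraries, with overlap.

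Groups did not overlap for 7 of 35 members (20%), all higher in TIS sEV, against 14.1% of all tested genes (11.3% higher and 2.77% lower). The remaining 3 were LAMC1, VIM and ZEB2, with log2 fold changes of 0.07, 0.03 and 0.11. The members' median log2 fold change was 0.03 and that of all genes 0.03, with 23 of 35 members (65.7%) and 66.7% of all genes above 0. The members' median became 0.066 when TIS sEV replicate 1 was left out, 0.019 when TIS sEV replicate 3 was and 0.014 when No sEV replicate 2 was. Under median-of-ratios scaling both medians were near 0, at 0.0017 for the members and 0.0012 for all genes.

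The comparison of Cont sEV with No sEV asks how recipients of vesicles from DMSO-treated donors differed from cells given none; it shares libraries with both comparisons above. CDH11 and FN1 lay higher in Cont sEV, as did TNC and PLOD1, and COL4A2 lay lower. limma called 0 of 35 members and 0 of all tested genes (0%). An unadjusted p under 0.05 was seen for 2 members (5.71%), CDH11 and FN1, against 6.03% of all tested genes (3.53% higher and 2.5% lower); with means of 5 TPM or more, it was 2 of 31 members (6.45%) and 6.24% of genes. That count became 6 when Cont sEV replicate 2 was left out, and 1 when TIS sEV replicate 1, Cont sEV replicate 3 or No sEV replicate 2 was left out, so it depended on single libraries.

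CDH11 had 142, 136 and 146 TPM in Cont sEV, against 129, 125 and 134 TPM in No sEV libraries (log2 fold change 0.13, SE 0.040, limma adjusted p = 0.789), without overlap. FN1 had 135, 124.4 and 146 TPM in Cont sEV, against 121, 122 and 124.4 TPM in No sEV libraries. The FN1 groups were barely separate, since the lowest Cont sEV and the highest No sEV library both stood at 124.4 TPM when rounded (log2 fold change 0.14, limma adjusted p = 0.807). TNC had 91.5, 85.9 and 99.4 TPM in Cont sEV, against 86.0, 85.2 and 85.2 TPM in No sEV libraries, where the groups overlapped (log2 fold change 0.11, SE 0.049, limma adjusted p = 0.807). PLOD1 had 106, 109 and 109.6 TPM in Cont sEV, against 105, 100.0 and 104 TPM in No sEV libraries, without overlap. COL4A2 averaged 31.6 ± 0.778 TPM in Cont sEV and 33.7 ± 0.663 TPM in No sEV libraries (SD, n = 3 each), the only one of these 5 that lay lower in Cont sEV (log2 fold change -0.09, limma adjusted p = 0.825). Groups did not overlap for 6 members (17.1%), 3 higher and 3 lower, against 11.2% of all tested genes (6.72% higher and 4.47% lower). COL1A1 and LAMB1 were the other members lower without overlap. The members' median log2 fold change was 0.03, against 0.01 over all genes, with 21 of 35 (60%) above 0 against 56.5%. The members' median became 0.015, 0.056 and 0.0020 when Cont sEV replicate 1, 2 or 3 was left out, and 0.0089 when No sEV replicate 2 was left out.

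Across the 3 groups, limma's moderated F test called 0 of 35 members and 3 of all tested genes (0.0216%). An unadjusted p under 0.05 was seen for 9 of 35 members, and for 1210 of all 13879 tested genes (8.72%), so the members' share was larger. That member count was 5 when TIS sEV replicate 3 or Cont sEV replicate 3 was left out. The smallest adjusted p of a member was 0.255, that of CD44. The precision bears on these counts. For the 31 members whose mean was 5 TPM or more, the median 95% interval extended 0.11 to each side on the log2 scale, from 0.041 for VIM to 0.28 for LAMA3. Of the 35 tested members, the interval on that log2(TPM + 1) scale reached a 1.5-fold difference for 0 in TIS sEV against Cont sEV, for COL7A1 alone in TIS sEV against No sEV and for VCAN alone in Cont sEV against No sEV. That scale understates folds in TPM for low genes such as VCAN, SNAI1 and COL7A1, whose intervals are wider in TPM than this count shows.

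**Figure D4:**
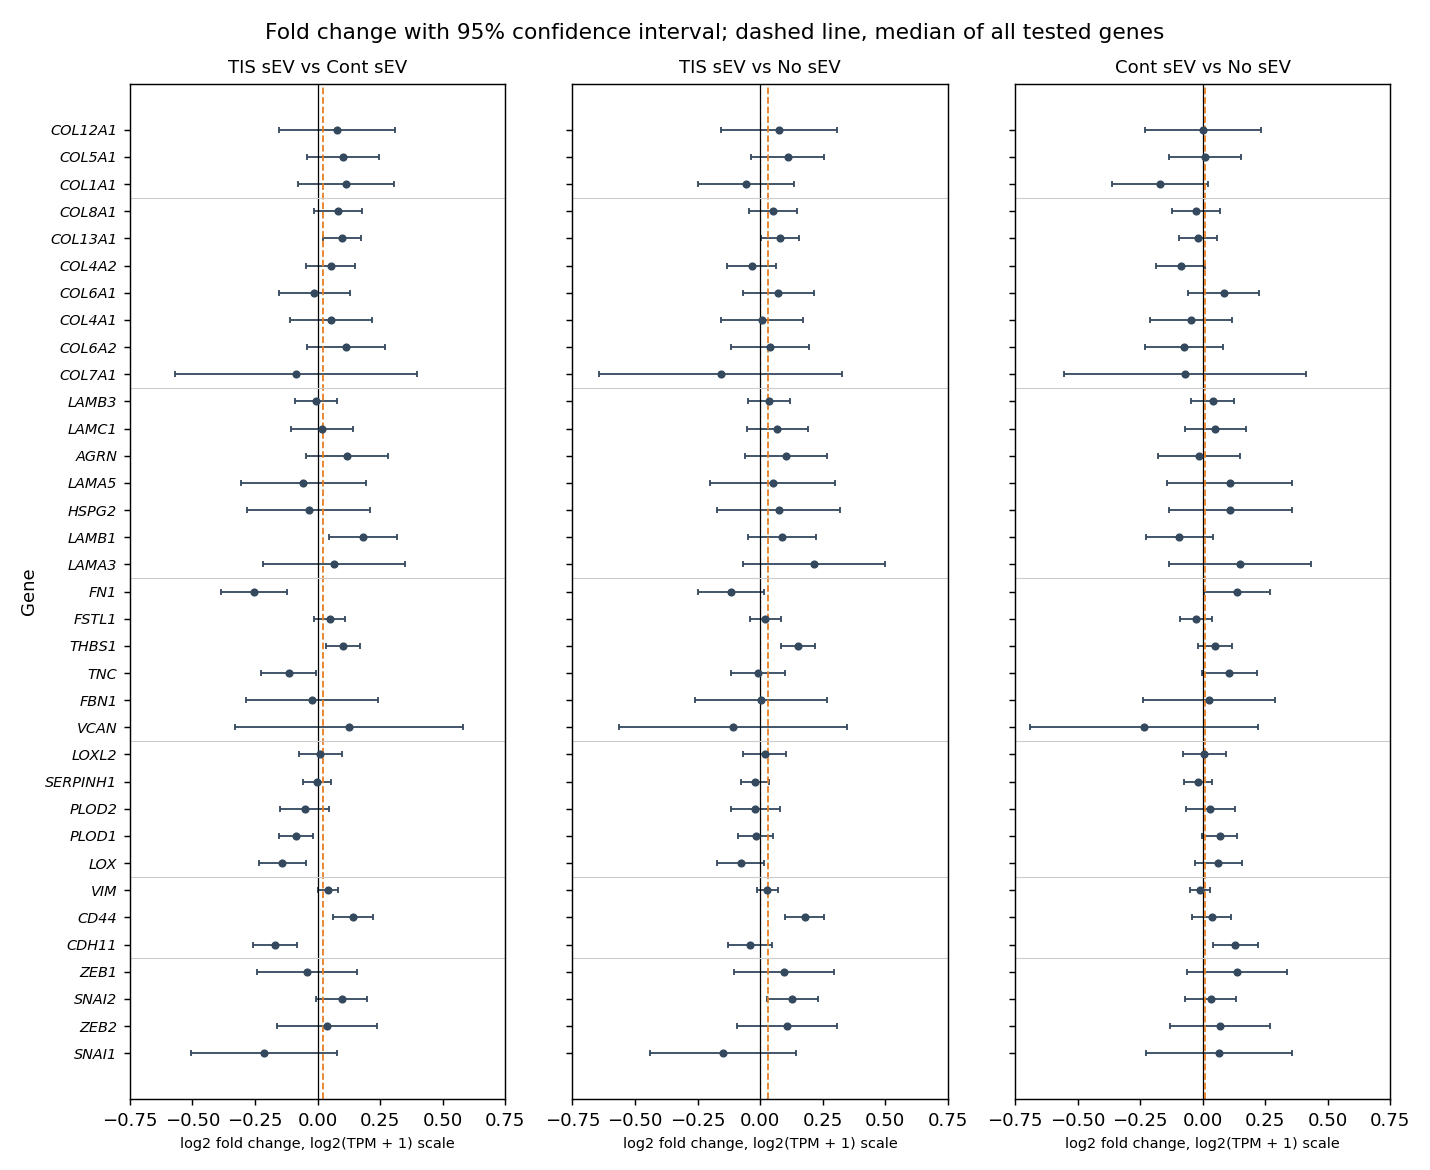
log2 fold change of the 35 tested members with its 95% confidence interval in each comparison, by role, with the solid line at 0 and the dashed line at the median of all tested genes. FN1 at -0.25 and LAMB1 at 0.18 are the lowest and highest in TIS sEV against Cont sEV, and most intervals include 0.

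By role, the 5 collagen enzymes and chaperones had a median log2 fold change of -0.05 in TIS sEV against Cont sEV, with 1 of 5 above 0, and the 3 tested fibrillar and fibril-associated collagens had 0.10, with 3 of 3 above 0. The 7 tested laminins and linkers had 0.02 with 4 of 7 above 0. Above 0 in the other roles were 5 of 7 network and other collagens, 3 of 6 glycoproteins and proteoglycans, 2 of 3 mesenchymal genes and 2 of 4 EMT factors. Of 22 tested collagen-processing genes outside the list, 10 lay above 0 in that comparison, with a median of -0.01. In TIS sEV against No sEV all 7 of the laminins and linkers lay above 0, with a median of 0.07. There, 2 of 3 fibrillar and fibril-associated collagens, 5 of 7 network and other collagens and 3 of 6 glycoproteins and proteoglycans lay above 0. So did 1 of 5 enzymes and chaperones, 2 of 3 mesenchymal genes and 3 of 4 EMT factors. Of all tested genes, 59.6% lay above 0 in TIS sEV against Cont sEV (median 0.02) and 66.7% in TIS sEV against No sEV (median 0.03). These are descriptions of few genes with no test.

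Related genes outside the list were compared in the same fit, where 10% of all tested genes had an unadjusted p under 0.05 in TIS sEV against Cont sEV, 7.97% in TIS sEV against No sEV and 6.03% in Cont sEV against No sEV. Of 40 other matrix genes 23 were tested and 0 were called in any of the 3 comparisons. An unadjusted p under 0.05 was seen for 2 of them in TIS sEV against Cont sEV, 1 in TIS sEV against No sEV and 2 in Cont sEV against No sEV. EFEMP1, for a fibulin family glycoprotein, had 35.9, 36.1 and 37.4 TPM in TIS sEV, 34.3, 31.3 and 32.1 TPM in Cont sEV and 31.8, 32.0 and 32.0 TPM in No sEV libraries, with the TIS sEV libraries above all others (limma adjusted p = 0.245 against Cont sEV and 0.319 against No sEV). Of 25 other collagen-processing genes 22 were tested and 0 were called, with 2 under an unadjusted p of 0.05 in each comparison. P4HA1, a prolyl hydroxylase subunit gene, had 71.4, 71.3 and 72.6 TPM in TIS sEV, 78.8, 77.8 and 77.0 TPM in Cont sEV and 73.5, 75.8 and 76.7 TPM in No sEV libraries. P4HA1 was lowest in the TIS sEV libraries, without overlap with either other group (limma adjusted p = 0.231 in TIS sEV against Cont sEV). LOXL3, a lysyl oxidase family gene, averaged 2.40 ± 0.595 TPM in TIS sEV, 2.47 ± 0.184 TPM in Cont sEV and 1.45 ± 0.0521 TPM in No sEV libraries (SD, n = 3 each), the No sEV libraries lying lowest (limma adjusted p = 0.714 in Cont sEV against No sEV).

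Of 28 epithelial junction and identity genes, which EMT represses, 19 were tested and 0 were called in any comparison, with 3 under an unadjusted p of 0.05 in TIS sEV against Cont sEV, 1 in TIS sEV against No sEV and 2 in Cont sEV against No sEV. The epithelial adhesion gene EPCAM was expressed at 21.1 to 25.9 TPM and the simple-epithelium keratin gene KRT18 at 406 to 431 TPM, next to vimentin. CLDN1, which encodes the tight-junction protein claudin-1, had 11.9, 11.8 and 11.98 TPM in TIS sEV, 10.5, 10.4 and 10.8 TPM in Cont sEV and 11.7, 11.3 and 11.7 TPM in No sEV libraries, with the Cont sEV libraries lowest (limma adjusted p = 0.350 in TIS sEV against Cont sEV). The median log2 fold change of this list was 0.02 in TIS sEV against Cont sEV and 0.04 in TIS sEV against No sEV, where 17 of 19 lay above 0; over all tested genes the medians were 0.02 and 0.03, and 66.7% lay above 0 in TIS sEV against No sEV. CDH1, TJP3, ESRP1, OVOL1, OVOL2, RAB25 and ST14 stayed below 1 TPM in every library and were not tested. GRHL2 and MARVELD3, also untested, were listed at 0 in all 9 libraries. Mesenchymal genes and part of the epithelial list were thus expressed side by side, and neither list held a gene that passed the test.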

How the data were processed

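RNA from 9 MDA-MB-231 libraries was quantified by the authors, who deposited gene-level TPM values. The submitters' processing notes name Salmon 1.4.0, Trim Galore 0.6.6, FastQC 0.11.9 and DESeq2 1.28.0, and GRCh38.p13 as the build; the sources used here give neither the role of each nor the release of the annotation. Since TPM holds no read depth, no count model was fitted. All 9 columns were used, with groups and replicate numbers taken from the labels.

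Symbols were matched by Ensembl identifier (99.5% of 60719 matched), gene coordinates are from GENCODE 29 on GRCh38, and upstream sequences are from RefSeq on GRCh38.p14. Values were taken as log2(TPM + 1), which understates fold changes of low genes, and a gene was kept if 3 or more libraries held 1 TPM or more of it. All 9 libraries were fitted with limma 3.58.1 (R 4.3.3), using group means, a variance trend and two-sided moderated tests. Benjamini-Hochberg adjustment ran over 13879 genes within each comparison. Figures used matplotlib 3.10.9. The steps were tested on simulated data.

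Values in every library are given for the 5 members of smallest unadjusted p per comparison, the member of highest level in each role, and VIM, FN1, CD44, COL4A1, COL4A2, ZEB1 and SNAI2; LAMB1, COL6A3 and SPARC were added after their values were seen. From related lists, up to 3 genes of smallest p per comparison were eligible. Values of some genes counted in the related lists are not reported here. Members, lists and tests were chosen with earlier results of these data known. Alternatives covered pseudocounts of 0.1 and 0.5, a filter of 5 TPM or none, other scalings, leaving out mitochondrially encoded genes, library weights, a constant prior variance, a fit of the 6 libraries compared alone, the replicate number as a block, and leaving out each library; leaving out both libraries of lowest weight was chosen after seeing the data.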

Additional observations from a re-analysis of the deposited data

How the results depend on the processing

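Under all 21 alternatives limma called 0 of the members in each of the 3 comparisons, and in the F test under the 20 that apply to it. The 15 named fold changes were those of the 5 members of smallest p per comparison in these same libraries. All kept their direction, and their limma adjusted p stayed above the threshold, in all 21. The alternatives reuse the libraries by which these members were picked, so the kept direction is no independent check. For FN1 in TIS sEV against Cont sEV the limma adjusted p ranged from 0.132 to 0.481 and for CD44 in TIS sEV against No sEV from 0.214 to 0.532. Counts over all genes were less stable, and the cause was not tested. In TIS sEV against Cont sEV, 13 genes became 2 with a constant prior variance, 3 with only the 6 libraries compared, 3 without both libraries of lowest weight (TIS sEV replicate 2 and Cont sEV replicate 2), and 2 to 13 when each library was left out. In TIS sEV against No sEV, 1 gene became 9 with no filter, 0 with a constant prior variance, 2 with only the 6 libraries compared, 2 without both libraries of lowest weight, and 1 to 2 when each library was left out. In Cont sEV against No sEV, 0 genes became 1 with a filter of 5 TPM, 7 with no filter, 1 without both libraries of lowest weight, and 0 to 1 when each library was left out. The members' median log2 fold change in TIS sEV against Cont sEV was -0.010 without both libraries of lowest weight and -0.0015 to 0.047 when each library was left out; the median over all genes moved too, to -8.2e-05 and 0.0071 for the lowest-weight and Cont sEV replicate 2 settings. In TIS sEV against No sEV the members' median was 0.0017 under median-of-ratios scaling and 0.014 to 0.066 when each library was left out. No effect shared by libraries of the same replicate number was seen. Deviations of same-numbered libraries correlated at -0.155 to 0.09 over 10494 genes, and 0 of 9 libraries correlated best with its own number. With 3 libraries per group, this cannot show that same-numbered samples were handled apart. With the replicate number as a block, 9, 1 and 0 genes were called in TIS sEV against Cont sEV, TIS sEV against No sEV and Cont sEV against No sEV, and 0 members. TPM gives no depth, so low members such as VCAN and SNAI1 carry an unknown counting error, and groups of 3 limit what differences could pass.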
